A study of Homo sapiens with 52 samples.

Results

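Senescence induced by doxorubicin (DXR), 16 days after treatment, was examined by mRNA-seq as the comparison of 2 DXR_D16 libraries with 2 libraries of untreated cells. The members were the genes whose mean normalized read count over these 4 libraries was at least 10, which held for 14921 of the 59408 genes listed. EPPK1 and GNMT lay just above this limit, both at 10.01, and TMEM225B (9.998) and FGF17 (9.996) just below it. WI-38 is a strain of normal human embryonic lung fibroblasts with a limited number of population doublings. The Untreated group was young, wild-type WI-38 cells at a population doubling level (PDL) of 32 to 46, with no agent added. DXR_D16 cells received 250 nM DXR for 24 h, were washed, and were kept for 16 days with regular changes of medium, which the study calls DNA damage response-dependent senescence (DDR-Sen). Cells collected earlier in the same course (DXR_D0 to DXR_D8), replicatively senescent cells passaged to a PDL of around 52 (RS), and cells 16 days after 24 h in 0.0090% sodium dodecyl sulfate (SDS_D16; plasma membrane damage-dependent senescence, PMD-Sen) were used to place the day 16 cells. Cells on days 0 and 16 after 24 h in 75 mM KCl (KCl_D0 and KCl_D16; Ca2+-dependent senescence in the study) appear at single points. A fit over 25 groups also held the other days after SDS and KCl. The untreated libraries carry no day, so 16 days of culture and the treatment cannot be told apart.

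Doxorubicin intercalates into DNA and traps topoisomerase II on it, which leaves double-strand breaks. The breaks activate ATM and p53, and p53 induces p21, an inhibitor of cyclin-dependent kinases (CDK) that keeps RB and its relatives unphosphorylated and their E2F- and DREAM-bound target genes silent. Senescent fibroblasts stay metabolically active, lose lamin B1, enlarge their lysosomes and secrete cytokines, proteases and growth factor binding proteins, together called the senescence-associated secretory phenotype (SASP).

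Whole reads per library were recovered from the deposited means, and a normalized read count below is a library's reads divided by its size factor. The day 16 libraries held 32.1 and 28.2 M reads and the untreated ones 19.0 and 15.3 M, and the 50 recovered libraries of the series ranged from 15.3 to 55.5 M. Within a group the 2 libraries are called the deeper and the shallower and are given in that order. The median difference between the 2 libraries of a group, over members with a mean of at least 100 (10590 in Untreated and 10493 in DXR_D16), was 0.11 on the log2 scale in Untreated and 0.13 in DXR_D16. For 97 of the most abundant members the reads of DXR_D16 could not be split between its libraries, and only the mean of the group is given. Of 13 fibroblast markers, 12 were measured in both groups, with a summed level of 517014 in DXR_D16 and 597330 in Untreated, and TWIST2 was at 0. The keratin genes KRT5 and KRT14 were at 0 in both groups. Of 8 white blood cell markers the summed level was 190 and 224 in DXR_D16 against 29.4 and 29.7 in Untreated, most of it CD14 (164 and 199 against 20.8 and 22.3), with PTPRC, which encodes the leukocyte antigen CD45, at 14.2 and 12.7 against 0 and 0. The summed level was 2916 and 3772 against 2266 and 2434 for 7 endothelial markers, 494 and 482 against 291 and 323 for 6 neuronal ones, and 2245 and 3187 against 3296 and 2867 for 9 epithelial ones. In bulk samples, a change in the share of cells that express a gene and a change in RNA per cell cannot be told apart.

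DXR_D16 differed from Untreated over a large part of the transcriptome. At an adjusted p under 0.05 (limma, Benjamini-Hochberg over the members), 5294 of 14921 genes (35.5%) were called, 2374 higher (15.9%) and 2920 lower (19.6%). The counts of the gene lists below are to be read beside these shares. The libraries of all 5258 called genes with a resolved split did not overlap between the groups; over all members with a resolved split this held for 34.9% in the higher and 36.5% in the lower direction. The median log2 fold change over all members was -0.01. A member with a mean under 10 in a group passed the limit only through the other group, which fixed its direction of change. Among the genes given below, these include the rises of CXCL14, CXCL10, PAPPA2, ASPN, COMP, TNXB, IFI27, C4A and DHRS1. They also include the falls of E2F8, NEK2, TROAP and SAPCD2. Most called changes were moderate, with a median of 0.69 in size on the log2 scale. At least 2-fold changes were found in 1729 genes (11.6%), 954 of them higher and 775 lower, and at least 8-fold changes in 116 and 119 genes. The number called rested on both untreated libraries: it was 2557 without the deeper and 2914 without the shallower one. The study describes the 2 libraries of a group as independent samples, and the p-values measure only the spread between these 4 libraries.

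**Figure D1:**
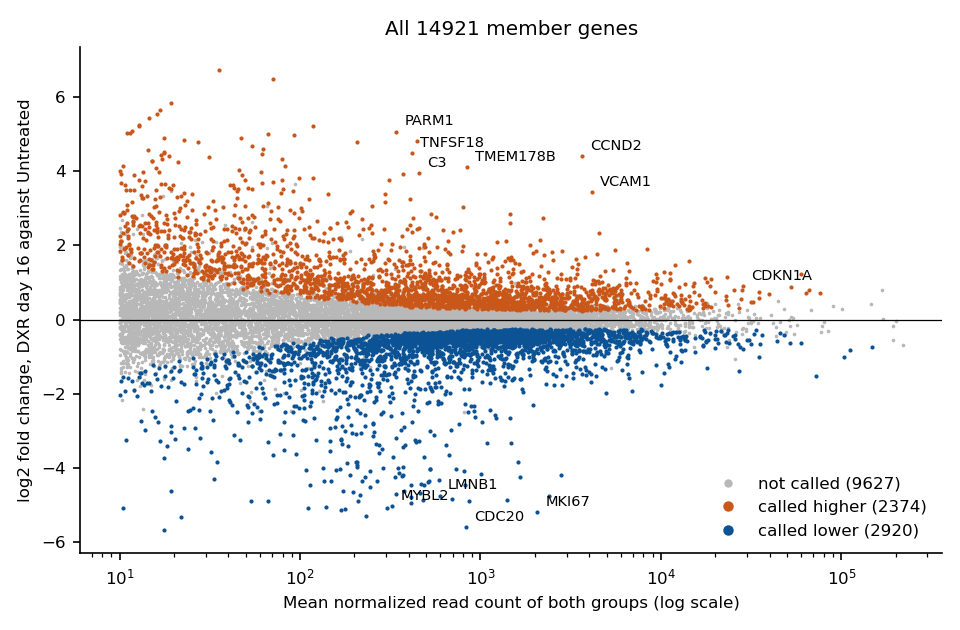
Each point is 1 of the 14921 member genes, with the mean normalized read count of both groups on a logarithmic x axis and the log2 fold change of DXR_D16 against Untreated on the y axis. Orange points are the 2374 genes called higher, blue points the 2920 called lower and grey points those not called; among called genes whose mean reached 100 the mitotic gene CDC20 is the lowest at -5.59.

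The CDK inhibitors divided into those that rose and 1 that fell steeply. CDKN1A, which encodes p21, had 35012 and 39184 normalized reads in the DXR_D16 libraries and 19064 and 20496 in the untreated ones, a 1.87-fold rise (log2 fold change 0.91 ± 0.10, SE; limma adjusted p = 0.00074). CDKN2A, whose reads count p16 and ARF together, had 882 and 996 against 546 and 541 and rose 1.72-fold. CDKN2B, which encodes p15, had 540.2 and 805 against 295 and 228 and rose 2.5-fold. In each of these genes both treated libraries lay above both untreated libraries, and the DXR_D16 libraries were farthest apart for CDKN2B. CDKN2C, which encodes p18 and is an E2F target, fell 17.02-fold, from 504 and 421 to 31.8 and 22.2. CDKN1B (p27; -0.18) and CDKN2D (p19; -0.12) were not called. CDKN1C (p57) was not called either (adjusted p = 0.092), with 33.1 and 34.2 in the treated libraries and 2.45 and 28.3 in the untreated ones, which lay far apart. Without the shallower untreated library it was called, at an adjusted p of 0.015.

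Among the 18 genes often used to mark senescent cells, 7 were called higher and 4 lower. Over all members 15.9% were called higher and 19.6% lower, so the count of falls lay near that share. LMNB1, the gene of lamin B1 in the nuclear lamina, fell 26.8-fold, from 1242 and 1049.8 to 37.2 and 49.3 (log2 fold change -4.74 ± 0.23; adjusted p = 4.4e-05). MKI67, the proliferation marker Ki-67, had 144 and 78.7 against 4489.5 and 3497, and HMGB2, a chromatin protein, 312 and 255 against 1689 and 1447. The treated and untreated libraries of these 3 genes were separated by many times the distance between libraries of a group. GLB1, which encodes the lysosomal enzyme behind senescence-associated β-galactosidase staining, rose 1.5-fold (2887 and 3065 against 2052 and 1919.7). The calls of CDKN2A, CDKN2B, LMNB1, MKI67, HMGB2 and GLB1 held when any 1 library was left out. GDF15, a stress cytokine and p53 target, rose 1.87-fold, IGFBP7 2.2-fold and the monocyte chemokine gene CCL2 3.07-fold (1841 and 2511 against 580.0 and 862).

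Several SASP genes of this list did not pass the test, unlike CCL2 and IGFBP7 above. IL6 had 105 and 199 in DXR_D16 and 56.3 and 87.7 in Untreated (adjusted p = 0.094), and CXCL8, the interleukin 8 gene, 118 and 116 against 29.4 and 201. The collagenase gene MMP1 had 6356 and 2334 against 3224 and 5413, and the stromelysin gene MMP3 1437 and 390.1 against 554 and 1129. The ranges of the 2 groups overlapped for CXCL8, MMP1 and MMP3, and the treated libraries of the collagenase and stromelysin genes lay on opposite sides of the untreated means. IGFBP3 likewise had 5426 and 12972 against 7753 and 6719.6. Without the deeper DXR_D16 library, IL6 (log2 fold change 1.52), IGFBP3 (0.85) and IGFBP5 (0.80) were called higher and MMP1 (-0.84) and MMP3 (-0.99) lower. Without the shallower one, MMP3 (0.89) was called higher and IGFBP3 (-0.41) lower, and without the shallower untreated library CXCL8 (1.97) was called higher. IGFBP5 had a mean of 212139 against 152152 and 98616 (adjusted p = 0.062).

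**Figure D2:**
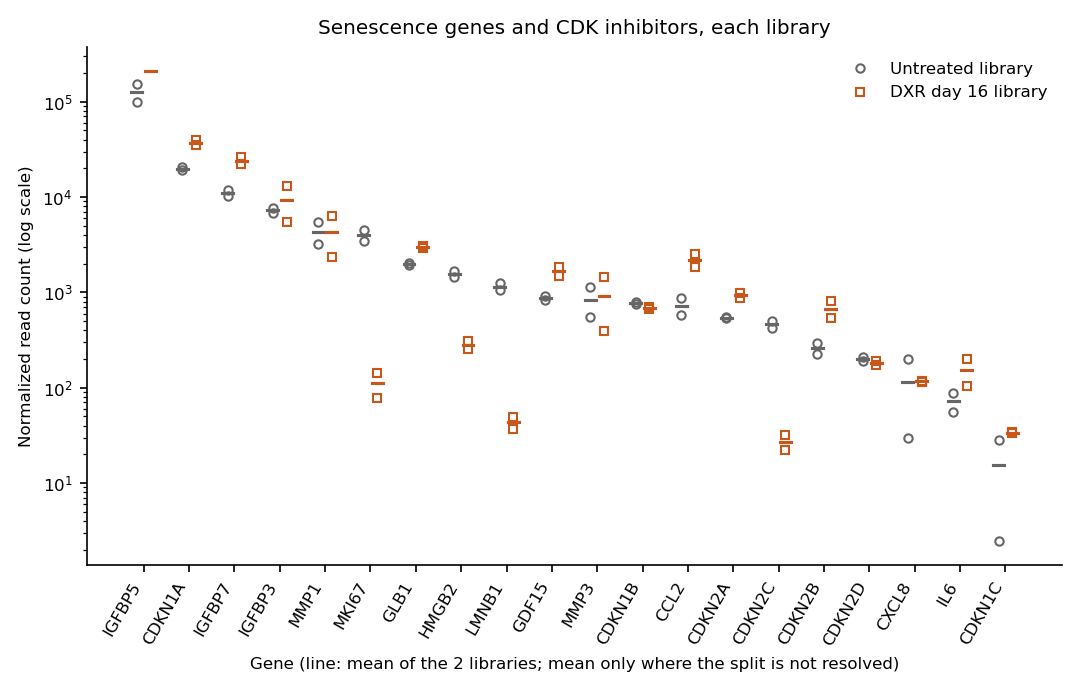
Normalized read counts on a logarithmic y axis for 16 senescence genes and the 7 CDK inhibitors (CDKN1A, CDKN2A and CDKN2B belong to both lists), ordered by their untreated mean. Grey circles are the 2 untreated libraries, orange squares the 2 DXR_D16 libraries and short lines the group means; MKI67, HMGB2, LMNB1 and CDKN2C lie far below their untreated values, and the libraries of MMP1, MMP3 and CXCL8 overlap between the groups.

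Genes of cell division made up most of the steepest falls among called genes whose mean reached 100. All 42 tested genes of mitosis and cytokinesis were called lower, with a median log2 fold change of -4.40, and SPC25, NUSAP1 and PRC1 of the 45 in the list were under the limit on the mean. CDC20, an activator of the anaphase-promoting complex, had 39.2 and 27.8 normalized reads in DXR_D16 and 1705 and 1539 in Untreated, a 48.05-fold fall (log2 fold change -5.59 ± 0.23; adjusted p = 3.8e-05). The kinesin gene KIF18B had 14.9 and 7.95 against 493 and 407, and NUF2, a kinetochore subunit, 15.5 and 5.56 against 316 and 376. The mitotic kinase gene NEK2, the ubiquitin-conjugating enzyme gene UBE2C, SAPCD2, TROAP and the chromokinesin gene KIF4A completed the largest falls, between 30.96- and 35.1-fold. In each of these genes both treated libraries lay far below both untreated ones.

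The genes of DNA replication and nucleotide supply fell as completely but by less. All 35 were called lower, with a median log2 fold change of -1.95 and a range from -4.62 to -0.67. MCM10, which helps to activate the replicative helicase, had 12.8 and 13.5 against 377 and 287, and the origin recognition gene ORC1 12.2 and 11.9 against 219 and 189. RRM2, a subunit of ribonucleotide reductase, fell 19.03-fold and TK1, thymidine kinase, 17.9-fold. The values of the treated libraries for MCM10 and ORC1 are few reads, so counting error widens the fold.

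Most promoters of the mitotic genes held 2 short elements that the choice of genes did not use. The cell cycle genes homology region (CHR; TTTGAA or TTCGAA) is bound by the DREAM complex, and CCAAT is the box of the factor NF-Y. Of the 10 genes with the largest falls, the promoters of the first 3 that hold both are shown. SAPCD2 and KIF4A hold both too, whereas NEK2 holds only CCAAT and NUF2 only CHR. The promoter of ORC1, which holds an E2F motif (TTGGCGC or TTCCCGC), follows. Each run of 140 bases starts 120 bases before the RefSeq gene start (build GRCh38.p14) and reads 5′ to 3′ on the strand of the gene, with CHR and CCAAT letters, or the E2F letters for ORC1, in capitals on either strand.
CDC20 (chr1:43358861-43359000, plus strand): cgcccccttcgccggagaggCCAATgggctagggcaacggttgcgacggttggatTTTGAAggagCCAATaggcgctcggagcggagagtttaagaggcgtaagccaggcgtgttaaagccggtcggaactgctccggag
KIF18B (chr17:44947754-44947893, minus strand): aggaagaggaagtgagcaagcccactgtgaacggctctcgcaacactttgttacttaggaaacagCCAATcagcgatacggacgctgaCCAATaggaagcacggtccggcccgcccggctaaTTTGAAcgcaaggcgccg
MKI67 (chr10:128126404-128126543, minus strand): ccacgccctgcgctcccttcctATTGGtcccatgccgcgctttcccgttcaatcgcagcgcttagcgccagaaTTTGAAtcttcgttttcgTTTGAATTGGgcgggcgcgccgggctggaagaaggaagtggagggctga
ORC1 (chr1:52404404-52404543, minus strand): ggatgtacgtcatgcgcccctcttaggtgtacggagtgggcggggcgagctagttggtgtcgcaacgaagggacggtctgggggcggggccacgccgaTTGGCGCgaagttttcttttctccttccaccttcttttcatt
In CDC20 the CHR lies between a pair of CCAAT boxes, in KIF18B it lies at the gene start, and in MKI67 the second CHR overlaps a reversed CCAAT box. In ORC1 the E2F letters also overlap a reversed CCAAT box, which is not marked as such.

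Windows of 300 bases, 250 before and 50 from the gene start, were searched on both strands for these letters. CHR letters stood in 80% of the 40 mitotic promoters matched by symbol, and in 11.3% of the promoters of the 10577 members matched and 16.6% of all 27305. CCAAT stood in 77.5% of the mitotic promoters against 36.4% of the members' promoters, and both elements together in 62.5% against 4.76%. The replication genes had another pattern: E2F letters stood in 64.5% of 31 promoters against 14.4% over the members. CHR letters stood in 6.45% of the replication promoters and CCAAT in 54.8%. The repair genes described below resembled the replication genes, with E2F letters in 64.7% of 17 promoters. Among genes called lower at a log2 fold change of at most -3, 50% of 96 promoters held CHR letters, and among those called higher at 3 or more, 18.5% of 81. The letters also stood in lists described below whose called genes rose. Of 28 replication-dependent histone promoters, 85.7% held CCAAT and 28.6% both CHR and CCAAT letters. Both stood in 33.3% of 9 complement promoters, but in 0% of 26 p53 target and 18 lysosomal promoters. The AP-1 letters TGACTCA stood in none of the mitotic, replication or repair promoters and in 3.19% of the members'. CHR and CCAAT letters overlapped in 2 of the 32 mitotic promoters with a CHR, and E2F letters overlapped a CCAAT box in 4 of the 20 replication promoters with E2F letters. These are matches of letters in a window, described with no test.

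Genes of homologous recombination and Fanconi repair fell with them, 18 of 20 called lower at a median log2 fold change of -2.59. POLQ, the polymerase of end joining by short homologies, had 27.7 and 21.5 against 422 and 352, and the helicase gene BLM 14.2 and 7.15 against 143 and 120.4. RAD51AP1 and RAD54L, genes of strand exchange, fell 11.7- and 11.5-fold. PALB2 (-0.03) and RMI2 (0.06) were not called.

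Of 23 genes of the nuclear envelope and chromatin, 20 were called lower and none higher (median -1.34). EZH2, the histone H3 lysine 27 methyltransferase of Polycomb, had 56.8 and 70.7 against 491 and 393. UHRF1, which carries DNA methylation through replication, had 293 and 388 against 2311 and 1906, and the chromatin remodeller gene HELLS 53.4 and 80.2 against 494 and 393. HMGA1 (-1.05), EED (-0.33) and SUN1 (-0.21) did not pass the test.

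Read counts of replication-dependent histone genes moved the other way. Their list median against Untreated was also above 0 in the other groups recovered, with 2.03 in DXR_D0 and 1.70 in RS. What share of their mRNA the libraries captured was not tested. Of 30 in the list only 12 reached the limit on the mean, and 10 of these were called higher, with a median log2 fold change of 1.46. The linker histone gene H1-2 had 1869 and 2134 against 411 and 538, H2BC8 464 and 354 against 69.7 and 77.3, H2BC4 848 and 714 against 166 and 219 and H4C8 890.4 and 787 against 143 and 236. Both treated libraries of these genes held several times the reads of both untreated ones. H2BC9 (-0.01) and H2AC11 (0.73) were not called. The histone genes are near-identical copies whose reads can be split among them, so the value of each single gene is uncertain, and a member that passed only through a high treated group had to differ.

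Of 24 tested cell cycle regulators, 13 were called lower and 3 higher, beside 19.6% lower and 15.9% higher over all members. MYBL2, which joins the DREAM subunits to switch mitotic genes on, had 20.96 and 16.7 against 649 and 608, and FOXM1, the transcription factor of the same programme, 109 and 71.5 against 1423 and 1624. The repressor E2F8 had 3.38 and 2.38 against 79.5 and 47.6. CCND2, which encodes the G1 cyclin D2, was among the 10 largest rises of called genes whose mean reached 100, with 6586 and 7284 against 333 and 314 (log2 fold change 4.42 ± 0.12; adjusted p = 1.4e-05). The treated libraries of CCND2 held about 20 times the reads of the untreated ones and differed little from each other. CCND1 (cyclin D1; 0.73) and CDK6 (0.33) rose less, but without 1 or the other untreated library CCND2 was the single regulator called higher.

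The p53 targets were mostly higher by small amounts. Of 31 tested, 17 were called higher and AEN (-0.59), an exonuclease gene, lower, with a median log2 fold change of 0.38. Over all members 15.9% were called higher. Without the shallower untreated library 11 were called higher, and AEN was not called when either untreated library was left out. TP53INP1, which encodes a stress-induced partner of p53, had 2518 and 2121 against 768 and 822, a 2.91-fold rise. EDA2R, a receptor of the tumour necrosis factor family, had 487 and 545 against 253 and 228, and the decoy receptor gene TNFRSF10C 211 and 245 against 100.3 and 109. CYFIP2 rose 2.14-fold. None of the genes in the list reached a log2 fold change of 2.

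The other largest rises among called genes whose mean reached 100 came from many functions. PARM1, a mucin-like membrane protein, had 491 and 829.5 against 12.2 and 28.3, and ITIH5, an inter-alpha-trypsin inhibitor heavy chain that binds hyaluronan, 721 and 997 against 23.2 and 38.7. CLCA2 had 286 and 512 against 8.57 and 20.8, and the extracellular sulfatase gene SULF2, which trims heparan sulphate, 469.9 and 927 against 36.7 and 49.1. TMEM178B had 1516 and 1661 against 89.3 and 92.2, and SCN4B, a sodium channel subunit, 177 and 267 against 12.2 and 17.8. All of them were low in both untreated libraries and at least several-fold higher in both treated ones, with the treated libraries of SULF2, CLCA2 and PARM1 the farthest apart. DHRS1 had 345 and 117 against 7.34 and 2.97, a rise lost when either untreated library was left out, and its libraries were over 4-fold apart in 12 of the 25 groups recovered.

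Secreted factors did not move as 1 group. Of the 20 chemokines 9 were measured, and 5 were called higher and none lower. Of these 5, CXCL14 and CXCL10 passed the limit on the mean only through DXR_D16. CXCL14 had 26.4 and 29.4 against 0 and 1.49, too few untreated reads for a fold. CXCL10 had 27.7 and 34.96 against 7.34 and 11.9 and CXCL1 58.8 and 119 against 3.67 and 35.7. CXCL16 rose by 1.28 on the log2 scale. Without the deeper untreated library 2 chemokines were called, CXCL1 and CXCL10 not among them, and 3 were called in the fit over 25 groups. Of 12 interleukins, their receptors and related cytokines, 2 rose and 1 fell, the rises near the 15.9% of all members. TNFSF18, the ligand of the T cell receptor GITR, rose 22.4-fold (754 and 847 against 35.5 and 34.2), and the interleukin 1 receptor gene IL1R1 1.6-fold, the latter not without the deeper untreated library. IL11 fell 3.81-fold (193 and 261 against 817 and 885).

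Growth factors divided into 7 that rose and 5 that fell among 26, the falls near the 19.6% of all members. BMP4 had 2958 and 3427 against 1084 and 697 and TGFB2 1915 and 2686 against 731 and 759.8, and the lipase inhibitor gene ANGPTL4 517 and 875 against 246 and 323. FGF1 (-1.20), VEGFC (-1.11), HBEGF (-1.005) and PDGFC (-0.79) were among the falls. The number called higher was 3 without the deeper untreated library, ANGPTL4 not among them, and 11 without the deeper treated one.

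The insulin-like growth factor (IGF) axis held 7 rises and 1 fall among 11 genes, with a median log2 fold change of 0.80. IGFBP2, which encodes a binding protein of IGFs, had 3355 and 4359.7 against 717 and 448. PAPPA, a protease that cleaves IGF binding proteins, had 4168 and 6093 against 1466 and 1813, and its relative PAPPA2 88.6 and 31.8 against 4.89 and 5.95. IGFBP7 had 22199 and 26067 against 10201 and 11759, both treated libraries above both untreated ones. IGFBP6 (-0.36) fell, but not when either untreated library was left out, where 4 genes of the axis were called higher, PAPPA2 not among them.

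The complement genes that were called all rose, beside 15.9% called higher and 19.6% lower over all members. Of 15 in the list 12 were measured, and 9 were called higher at a list median of 0.90; 5 were called without the shallower untreated library. C3, the central component, had 761 and 935 against 31.8 and 98.1, a 15.5-fold rise (adjusted p = 0.00059). C7, part of the membrane attack complex, had 218 and 243 against 57.5 and 49.1. The reads of C4A and C4B were few. These near-identical copies, which share reads, had 36.5 and 51.6 and 60.8 and 134 against 11.01 and 5.95 and 20.8 and 10.4. C4A was lost without the shallower untreated library and C4B when either one was left out. CD59 (0.11), C1R (0.18) and C6 (0.82) were not called. Among the white blood cell markers given above, CD14 and PTPRC had higher counts too, and their part in the complement rise was not tested. The summed level of the 8 markers was 207 in DXR_D16, 213 in RS, 204 in SDS_D16 and 29.6 in Untreated.

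Of 19 matrix proteases and inhibitors, 3 rose and 4 fell, shares near the 15.9% and 19.6% of all members, so the counts say nothing particular of this list. The aggrecanase gene ADAMTS5 had 2065 and 3077 against 351 and 348, and PLAT (0.66) and TIMP1 (0.39) rose less. The urokinase receptor gene PLAUR had 983 and 984 against 2114 and 2113, a 2.15-fold fall in libraries that hardly differed within each group. Urokinase itself (PLAU) fell from 15199 and 18379 to a mean of 9270.5, and the membrane-type metalloprotease gene MMP16 from 551 and 639 to 309.6 and 207. The list held 1 higher gene without the deeper untreated library, and without the shallower treated one 6.

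Genes of the extracellular matrix were called in both directions. Of 23 collagens 8 fell and 4 rose, the rises near the 15.9% called higher over all members (median -0.39), with the basement membrane collagens COL15A1 (104 and 128 against 522 and 358), COL4A1 (-1.30) and COL4A2 (-1.40) among the falls. COL6A3, a chain of collagen VI, had a mean of 37341 against 122400.3 and 92789, and COL5A3 65.6 and 118 against 283 and 213. COL14A1 had 452 and 663 against 192 and 177, and COL3A1, COL8A1 and COL4A5 rose by 0.48, 0.70 and 0.75 on the log2 scale. Without the shallower untreated library 2 collagens were called higher, and COL5A3 was lost without the deeper one. Of 31 elastic fibre, proteoglycan and matricellular genes 12 fell and 8 rose, against 19.6% lower and 15.9% higher over all members. HAS2, which makes hyaluronan, fell 12.01-fold (37.9 and 46.1 against 625 and 391). ASPN, COMP and TNXB had 31.1 and 30.99, 41.2 and 45.3 and 25.01 and 26.2 in DXR_D16 against 3.67 and 1.49, 12.2 and 1.49 and 1.22 and 7.43, few reads for a fold, and LUM (lumican) and FMOD (fibromodulin) rose by 1.54 and 1.98 on the log2 scale. In this list 6 genes were called lower without the deeper untreated library, and TNXB was not called.

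Of 25 laminins and integrins 6 rose and 5 fell, the falls again near the share over all members. ITGA11, the alpha chain of a collagen receptor, had 3612 and 4181 against 1888 and 1447, and ITGB8, which activates latent TGF-β, 508 and 628 against 201 and 207. The fibronectin receptor chain ITGA5 had 7793 and 8615 against 15901 and 16358 and ITGA2 5148 and 3546 against 8054 and 9094. The number of laminins and integrins called lower was 2 without the deeper and 3 without the shallower untreated library, and 8 without the deeper treated one. Of 21 contractile genes 9 were called lower and none higher (median -0.56), beside 19.6% lower over all members. ACTG2, a smooth muscle actin, had 2801 and 6969 against 15962 and 14312, with 1 treated library well below the other. The filamin gene FLNA had a mean of 81204 against 151851 and 134978, and CNN2 (calponin 2) and TGFB1I1 (Hic-5) fell 1.84- and 1.9-fold. Without the deeper untreated library 1 contractile gene was called lower, without the shallower one 2, and without the shallower treated library 15; FLNA and CNN2 were lost when either untreated library was left out and ACTG2 without the deeper one. Of 18 targets of YAP and TEAD, 2 rose and 6 fell, beside 15.9% higher and 19.6% lower over all members. CCN2 (0.80) and TGFB2 were higher, and AXL (-1.07) and NT5E (-0.71) were among the lower. Without the deeper untreated library 1 of them was called higher and 2 lower, without the shallower one 3 lower, and without the deeper treated one 4 higher.

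Interferon-stimulated genes were more often higher than lower. Of 22 tested 10 were called higher and 2 lower, with a median log2 fold change of 0.93. IFI6, a mitochondrial membrane protein, had 1819 and 1774 against 612 and 501. OAS2, a sensor of double-stranded RNA, had 66.3 and 69.1 against 28.1 and 4.46, and IFI27 22.99 and 18.3 against 8.57 and 2.97. The untreated libraries of OAS2 lay far apart, and without the shallower of them 4 genes were called higher, OAS2 and IFI27 not among them; 6 were called in the fit over 25 groups. CGAS, the sensor of cytosolic DNA, fell 3.08-fold (74.4 and 65.2 against 219 and 213), as did OAS3 (-0.91). Of 9 measured genes of antigen presentation on MHC class I, B2M (0.26) and HLA-C (1.25) rose, near the 15.9% of all members. The median log2 fold change of this list was -5.9e-05. The HLA genes have near-identical copies and few reads here, and 6 others of the 15 were under the limit, so their values are uncertain; B2M was lost when either untreated or the deeper treated library was left out.

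Of 32 lysosomal genes 19 were called higher and none lower, at a median log2 fold change of 0.40, beside 15.9% higher over all members. The fucosidase gene FUCA1 had 172 and 208 against 28.1 and 38.7, and LGMN, an asparaginyl endopeptidase, 1671 and 1812 against 493 and 647. The ceramidase gene ASAH1 rose 2.18-fold and the cholesterol carrier gene NPC2 1.81-fold. Without the shallower untreated library 11 were called. Of 22 genes of cholesterol and fatty acid synthesis 7 rose and FASN (-0.59), the fatty acid synthase, fell; without the shallower untreated library 1 was called higher. DHCR7 (0.76), MSMO1 (0.68) and SC5D (0.59), late enzymes of cholesterol synthesis, were among the rises. FASN was not called without the deeper untreated library.

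Stress pathways gave mixed results. Of 15 targets of ATF4, 7 fell and 2 rose, the rises near the 15.9% of all members. CHAC1 had 581 and 699 against 1716 and 2230.4, and the amino acid transporter gene SLC7A5 829.5 and 1135 against 3237 and 2319.7. PHGDH, the first enzyme of serine synthesis, had 601 and 777 against 1963 and 1325. ATF3 (0.87) and VLDLR (0.82) rose. Of 14 antioxidant genes under NRF2, the ferritin genes FTH1 (0.64) and FTL (0.72) and GCLC (0.62) rose and HMOX1 (-0.81) and NQO1 (-0.60) were among the 3 that fell; both shares lay near the 15.9% and 19.6% of all members, and both ferritins have processed copies in the genome. Of 4 measured metallothioneins MT1E fell 2.91-fold (356 and 306 against 854 and 1102) and MT2A 1.82-fold. Of 13 mitochondrially encoded mRNAs MT-ND6 (0.45) and MT-ND3 (0.29) were called higher, near the 15.9% of all members, and neither was called when either untreated library was left out. Without the deeper untreated library 3 ATF4 targets were called lower and 1 NRF2 gene higher, and without the shallower one no ATF4 target was called higher, 1 NRF2 gene lower and MT1E as the single metallothionein.

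Among 13 BCL2 family genes, where the shares called lay near those over all members, the pro-apoptotic BCL2L11 (BIM), BMF and BBC3 (PUMA) rose 3.1-, 2.09- and 1.67-fold, and PMAIP1 (NOXA; -0.54) and the anti-apoptotic MCL1 (-0.32) fell. Of 17 surface proteins described on senescent cells 5 rose and 7 fell, beside 15.9% higher and 19.6% lower over all members. The adhesion molecule gene VCAM1 had 5705 and 9406 against 858 and 522, a 10.8-fold rise, and the peptidase gene DPP4 7285 and 8358 against 2859.6 and 3277. CD274, the checkpoint ligand PD-L1, fell 4.5-fold (64.9 and 141 against 499 and 346). Without the deeper untreated library 2 surface genes were called higher and 4 lower, and BMF was lost; without the shallower one 4 were lower, and BBC3, PMAIP1 and MCL1 were lost. The call counts of the mitotic, replication, repair, histone, nuclear envelope and CDK inhibitor lists stayed within 1.5 times when any 1 of the 4 libraries was left out.

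**Figure D3:**
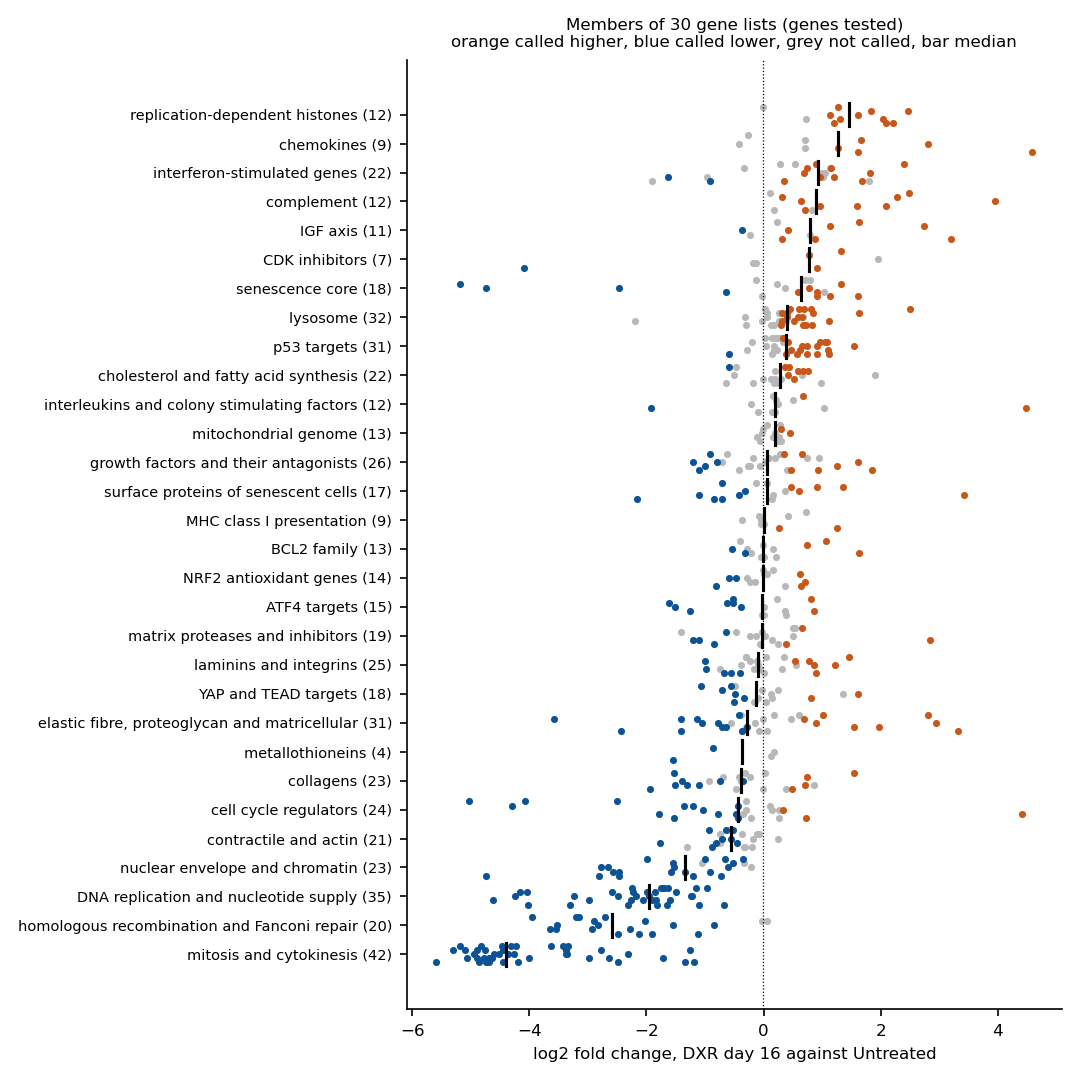
Each point is a gene, its log2 fold change of DXR_D16 against Untreated on the x axis, in 30 lists ordered by their median (black bar), with the number tested beside each name. Orange points were called higher, blue lower and grey not called, and the dotted line marks the median of all members at -0.01; the mitotic genes have the lowest median at -4.40 and the replication-dependent histones the highest at 1.46.

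The earlier days of the same course were set beside day 16. Over all 14921 members, the highest mean of the course stood on day 16 in 19.8%, on day 0 in 22.6% and in Untreated in 24.1%. Levels are means of 2 libraries on a scale tied through the untreated libraries, day 1 is not analysed here, and all days share the untreated pair. Proliferation genes were already low at the end of the 24 h treatment (day 0): LMNB1 had 1146 untreated, 46.2 on day 0, 91.7 on day 3 and 43.2 on day 16, and the mitotic list had a median against Untreated of -4.45 at day 0, of -3.21 by day 4 and of -4.38 at day 16. The p53 targets were highest on day 0 and lower afterwards. CDKN1A had 84132 on day 0, 48571 on day 2, 41227 on day 8 and 37098 on day 16, and GDF15 had 12673, 2719, 1938 and 1668 against 883 untreated. The p53 list had a median against Untreated of 1.37 at day 0, of 0.44 by day 8 and of 0.39 at day 16.

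A second set of genes had its highest levels late. CCND2 had 323 untreated, 977 on day 0, 1862 on day 4, 3550.3 on day 8 and 6935 on day 16. TNFSF18 had 34.8 untreated, 75.8 on day 4, 238 on day 8 and 800.4 on day 16. VCAM1 was below its untreated mean of 689.8 on day 0 (220.4) and reached 2616 on day 8 and 7555 on day 16. CDKN2A likewise had 388 on day 0, 789 by day 8 and 939 at the end. SULF2 instead was highest on day 0 (1499), lowest of the treated days on day 6 (413) and at 699 on day 16.

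**Figure D4:**
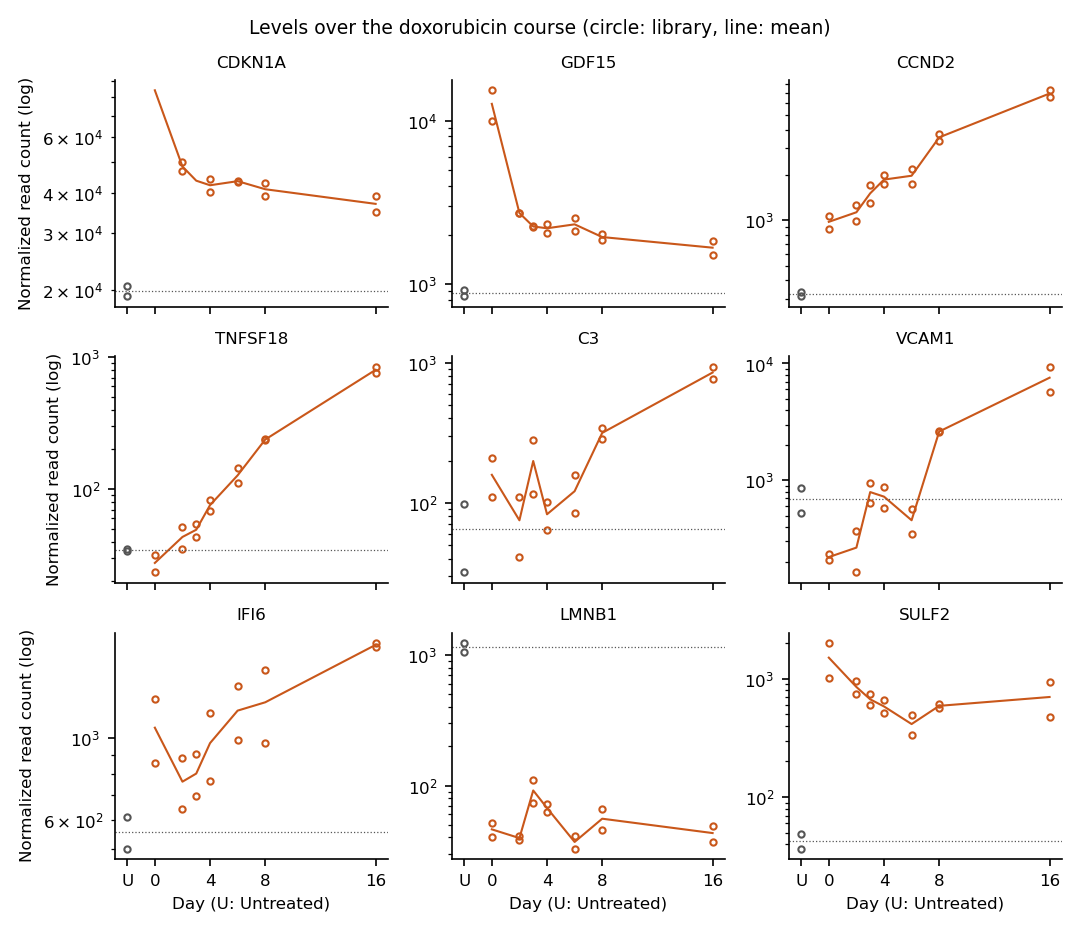
Normalized read counts (logarithmic y axes) of 9 genes against the day after DXR on the x axis, with U for Untreated, circles for single libraries where resolved and lines for group means; the dotted line is the untreated mean. CDKN1A and GDF15 are highest on day 0, CCND2, TNFSF18, C3 and VCAM1 are highest on day 16, and LMNB1 is low on each day.

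The test against day 8, which shares no untreated library, showed how much still moved late. Of 14920 genes 114 (0.764%) were called, 91 higher (0.61%) and 23 lower (0.154%) on day 16, and 2128 (14.3%) passed an unadjusted p under 0.05. The number was 35 without the deeper and 39 without the shallower DXR_D8 library, 324 and 347 without the deeper and the shallower DXR_D16 library, and 614 in the fit over 25 groups. ITIH5 had 721 and 997 on day 16 against 143 and 154 on day 8 (log2 fold change 2.50 ± 0.21; adjusted p = 0.0084). TPBG, the oncofetal antigen 5T4, had 38.5 and 37.3 against 143 and 115, and TRIM55, a ubiquitin ligase of muscle, 75.04 and 78.7 against 241 and 242; the call of TPBG was lost without the deeper DXR_D8 library. The call of ITIH5 held when any 1 of the 4 libraries was left out, and that of RAB11FIP3 and of FBL, described below, was lost when either DXR_D8 library was left out.

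Several called members of the 30 lists are given, picked with their values in view. The complement genes C3 and C1S were higher than on day 8 by 1.41 and 0.68 on the log2 scale. CCND2 (0.96), TNFSF18 (1.74), VCAM1 (1.48), COL14A1 (1.46), LUM (1.01) and MFAP4 (0.93) were higher too. The mitotic kinase gene AURKA (-0.84), the chromatin gene HMGA2 (-1.10) and MICA (-3.05), a stress ligand whose libraries were over 4-fold apart in 6 of 25 groups, were lower. HMGA2 had 2098 and 1892 on day 16, 4181 and 4351 on day 8 and 7735 and 8031 untreated. The median of the interferon-stimulated genes against day 8 was 0.71 and that of the chemokines 0.64, with no gene of either list called, beside -0.02 over all genes.

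The largest differences from day 8 fell on genes whose libraries part within groups. SQSTM1, the autophagy receptor p62, had 233 and 183 on day 16 against 3413 and 3852 on day 8, but its RS libraries held 2959 and 154 and its SDS_D16 libraries 231 and 4768. The proteasome gene PSMB3 had 1074 and 1009 against 42.7 and 79.5 and its day 6 libraries held 1407 and 42.1. FBL, the nucleolar methyltransferase fibrillarin, had 288 and 564 against 12.2 and 41.5 and its untreated libraries 749 and 50.6. RAB11FIP3 (526 and 1011 against 132 and 94.2) and the phosphatase gene PTPRK (146 and 139.8 against 411 and 460.0) did likewise. The libraries of a group were over 4-fold apart in 10 of 25 groups for SQSTM1, 12 for PSMB3, 11 for FBL, 5 for RAB11FIP3 and 12 for PTPRK, and none of the 5 was called in the fit over 25 groups. Of the members, 757 had such libraries in at least 1 of the 25 groups, 253 of them called against Untreated.

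**Figure D5:**
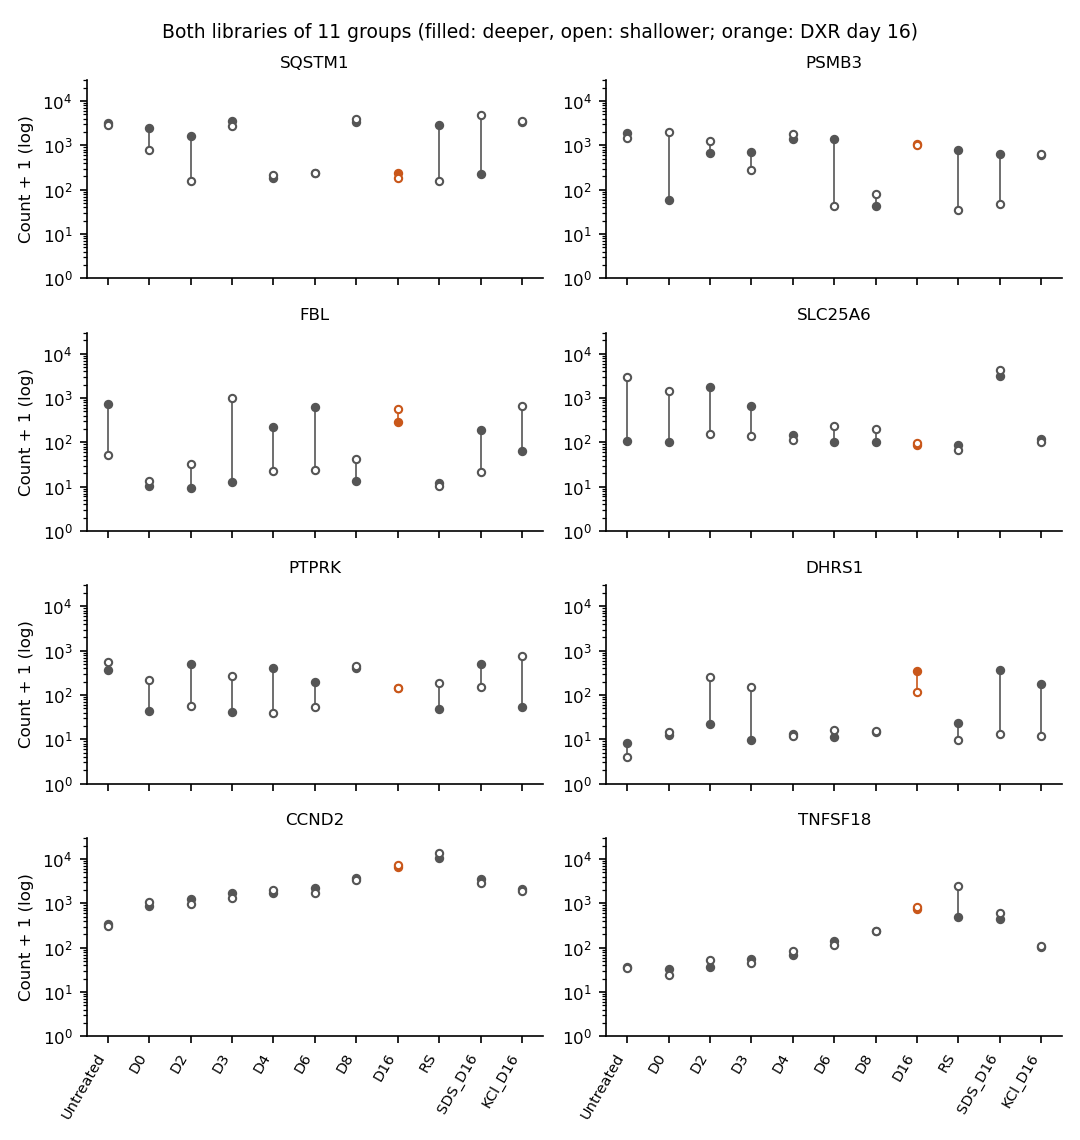
Normalized read counts plus 1 (logarithmic y axes) in both libraries of 11 groups, filled points for the deeper and open points for the shallower library, with DXR_D16 in orange. The groups are Untreated, the DXR course without day 1, RS, SDS_D16 and KCl_D16. SQSTM1, PSMB3, FBL, SLC25A6, PTPRK and DHRS1 jump between a high and a low level within groups, whereas the libraries of CCND2 lie close together throughout.

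Against the other senescent cells few differences passed the test. No gene was called against RS (limma, 0 of 14921, with voom weights or with a trend), where 904 (6.06%) passed an unadjusted p under 0.05; without the deeper or the shallower RS library 281 and 478 were called, and 834 in the fit over 25 groups, which pools the spread of all of them. The 2 RS libraries were the farthest apart of all groups, with 447 of 10590 genes over 2-fold apart against 75 of 10493 in DXR_D16. Of the levels side by side, ITIH5 had 721 and 997 in DXR_D16 and 1169.6 and 8653 in RS, CDKN2A 882 and 996 and 1694 and 1546, and C3 761 and 935 and 189.9 and 482. In the median, the mitotic genes differed from RS by 0.09 and the replication-dependent histones by -0.19.

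Against SDS_D16 1 gene was called (0.0067%), and 1282 (8.59%) passed an unadjusted p under 0.05. SLC25A6, a mitochondrial ADP/ATP carrier, had 85.2 and 95.3 in DXR_D16 and 3133 and 4299 in SDS_D16 (log2 fold change -5.35 ± 0.27; adjusted p = 0.024). Its untreated libraries held 109 and 2941, its libraries were over 4-fold apart in 7 of 25 groups, and the call was lost when either DXR_D16 library was left out. Without the deeper SDS_D16 library 417 genes were called and without the shallower one 63, and 738 in the fit over 25 groups. The mitotic list had a median of -1.27 against SDS_D16, with 29 of 42 genes lower in both DXR_D16 libraries than in both SDS_D16 libraries; of all members 22.6% were lower and 19.8% higher in this way. MKI67 had 144 and 78.7 against 645 and 257 and LMNB1 37.2 and 49.3 against 192 and 116, none of it past the adjusted threshold. CCND2 had 6586 and 7284 against 3559.9 and 2899.7 (adjusted p = 0.5).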

How the data were processed

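WI-38 mRNA was sequenced by the authors as 2 libraries per group. Per the labels, reads were handled with Trim Galore, HISAT2, HTSeq, featureCounts and DESeq2 on GRCh38 (hg38), with no order or role given. The deposited files are 25 distinct tables, each comparing 1 condition with the same untreated libraries. The authors deposited for each gene the mean normalized count over the 4 libraries compared, which was treated as a signal that is never negative. The tables also hold log2 fold changes, errors, statistics and p-values of the authors' comparisons, which were not used. Other columns of per-sample values numbered 0, and 1 row per table names no gene and was left out.

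A mean is the sum of each library's whole reads times the step that 1 read is worth. The steps were read from low genes, and the reads were then solved exactly from the decimals of the means. The 10 tables with 15 digits were solved together, and the 14 with 10 digits from the untreated reads; the steps of DXR_D1 could not be read. Of 39968 genes above 0, 39966 gave the same untreated reads from disjoint sets of the tables. In simulated tables all resolved splits were right. Those splits were solved with the true steps and untreated reads, from libraries with a set spread. Errors in these inputs, and libraries far apart, could therefore not show. For the 97 unresolved members, counted into the depth at an equal split, the fit was run at the most equal and the most unequal split and the larger p kept; 36 of them were called.

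Reads were tested with limma 3.58.1 (voom weights and empirical Bayes, R 4.3.3) on the libraries of the 2 groups compared, scaled by the recovered size factors, two-sided, with Benjamini-Hochberg adjustment over the members. Tested on simulated data with 200 changed genes of 14921, this called 96.5% of genes changed by 2 on the log2 scale, 4.5% of those changed by 1 and 0% of those changed by 0.5, and in the run with changes of 2 on the log2 scale 9.39% of the calls were unchanged genes. The simulation used a set spread and far fewer changed genes than the 5294 called here, whose smallest change was 0.25 on the log2 scale. Its shares therefore do not carry over to this comparison. A change around 2-fold or smaller that was not called may still be present. The alternatives were other normalizations, filters and pseudocounts, a fit over all 25 groups with recovered reads, and the omission of each library and of genes whose libraries were over 4-fold apart, the last added after seeing the data.

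Named genes are the members of the senescence and CDK inhibitor lists, the 4 with the largest change among the called members of each other list, and the 10 largest rises and falls (4 in other comparisons) among called genes whose libraries do not overlap and whose mean reaches 100. Further members given with a value, and those shown by day, were picked with their values in view. The members and the lists were chosen with earlier results of these data known. A few genes that these rules name, though counted in their lists, are not reported here. Figures were drawn with matplotlib 3.10.9, and promoters are those of RefSeq.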

Additional observations from a re-analysis of the deposited data

Results flagged for a closer look

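The comparison with day 8 of the same course gave 114 called genes (limma, adjusted p under 0.05), a difference between 2 time points after the same treatment. Its largest rises were PSMB3 (4.17 on the log2 scale), FBL (4.15), RAB11FIP3 (2.68) and ITIH5 (2.50), and its largest falls SQSTM1 (-4.13), TPBG (-1.76), TRIM55 (-1.65) and PTPRK (-1.60). All but ITIH5 were lost in the fit over 25 groups, with adjusted p from 0.15 for TRIM55 and RAB11FIP3 to 0.55 for PTPRK. Of the 114 genes, 7 had libraries over 4-fold apart within at least 5 of the 25 groups.

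Against SDS_D16, another inducer at the same day, 1 gene was called. SLC25A6 differed by -5.35 on the log2 scale, with an adjusted p of 0.088 in the fit over 25 groups. In none of these comparisons does a group hold 4 libraries, so single libraries were not tested for standing apart.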

How the results depend on the processing

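The 5294 calls against Untreated numbered 1729 with a log2 fold change of at least 1 required and 2557 to 5738 when 1 library was left out, where a lone library is assumed to vary like the others. Scaling by library totals moved the median of all members to 0.05 and the share of calls that were higher from 44.8% to 52.6%. Against DXR_D8 the 114 calls became 677 without a filter, 67 with the fold required, 614 in the fit over 25 groups and 35 to 347 with 1 library left out. Against RS the count of 0 became 36 without a filter, 834 over 25 groups and 0 to 478 with 1 library left out, and against SDS_D16 the count of 1 became 8, 738 and 0 to 417. The cause of these shifts was not tested. Signs turned for log2 fold changes that were not called: MMP3 had 0.035 with library totals, 0.0021 over 25 groups and -0.99 to 0.89 with 1 library left out, CXCL8 -0.78 to 1.97, MMP1 -0.84 to 0.61 and IGFBP3 -0.41 to 0.85. Of 1235 values of the 142 named genes in other settings that left out no library, 1177 kept direction and call, 50 lost the call, 6 gained it and 2 turned. The 117 of them without genes whose libraries were over 4-fold apart reuse the main fit, so they could not change. That setting also enters the list counts at the end of this paragraph. Calls against Untreated that the fit over 25 groups lost included CXCL10 (adjusted p = 0.053), TNXB (0.17), OAS2 (0.096), IFI27 (0.23), HLA-C (0.16), B2M (0.052), BMF (0.19), C4A (0.083) and DHRS1 (0.25). Of 780 list counts, 658 stayed within 1.5 times.

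No paired analysis was possible because the recovered libraries carry no replicate number. The 2 libraries per group and the untreated depth of 15.3 and 19.0 M reads limit what could be called, and the exact split of the 97 most abundant unresolved genes is not known.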

Other observations

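The libraries of the doxorubicin course held reads of more genes than those of untreated cells. With every library thinned in expectation to the lowest depth of 15.3 M reads, 25127 and 24555 genes had at least 1 read in DXR_D16. Earlier days of the course had 24504 and 23574 in DXR_D2, 24477 and 23508 in DXR_D8 and 24257 and 24452 in DXR_D0. The lowest of the course was 23013, in the shallower library of DXR_D3. Outside the course, cells on day 0 after 24 h in 75 mM KCl (KCl_D0) had 24066 and 23905. The untreated libraries had 21800.2 and 21793, those of RS 23436 and 23014, and those of SDS_D16 23017 and 22602. Without symbols that are only an identifier the numbers were 19121 and 18828 in DXR_D16 against 17124 and 17148 in Untreated. This was described with no test.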
